A study of Triticum aestivum with 2 samples.

Results

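Circular RNAs (circRNAs) form a closed loop, in which a downstream splice site of a transcript is ligated to one upstream of it. They are recognised in sequencing by reads that cross this back-splice junction. One stretch of genome can give several circRNAs when different starts and ends are joined. Bread wheat is hexaploid and carries the A, B and D subgenomes, so chromosomes 7A and 7D are counterparts (homoeologues) of each other and often hold near-identical copies of a sequence.

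Of the 88 circRNAs that were called in wheat leaves, 12 fell into the 2 largest clusters of overlapping circRNAs, with 7 on chromosome 7D (positions 12625708 to 12627163) and 5 on chromosome 7A (positions 11713998 to 11717078). They were chosen by position: they are the circRNAs whose called junctions overlapped each other on these chromosomes, so the overlap itself and the shared starts and ends are a description and were not tested. No other circRNA of the table lay on the assembled chromosomes 7D and 7A, and no other locus held more than 3 circRNAs. The PEG library came from two-leaf seedlings of cultivar Aikang 58 (a wheat variety) after 12 h in 20% polyethylene glycol, a polymer that holds water back from the roots and set an osmotic potential of -0.975 MPa, and the control (CK) library from seedlings given nutrient solution alone for the same 12 h. Leaves of 3 pots were pooled for each library, so each condition had 1 library and no replicate, and all tests compare these 2 libraries, not the conditions. All junction reads together came to 124 in PEG and 353 in CK. The tissue label, leaf, could not be checked against marker genes, since the table holds circRNAs only.

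All 12 circRNAs were classed as intergenic by the authors, with no transcript named, and for all 12 the predicted length was the whole span from start to end. Positions are those of the IWGSC1.0+popseq assembly, counted from 1. For comparison between the loci each circRNA is given here by letters for its start and its end. On 7D the starts are a, b, c and d and the ends x and y, in order of position. A 7A start or end that lies on a 7D one, as described next, has the same letter, and the others on 7A are the start u and the end w.

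The junctions of 7D were built from 4 starts and 2 ends. The starts were a at 12625708, b at 12625724, c at 12625731 and d at 12625789, and the ends were x at 12627116 and y at 12627163. Each of a, b and c was joined to both ends, so that all 6 of the 6 possible pairs were called. Start d was joined to x only. The 7D spans ran from 1328 nt for 7D:12625789|12627116 (d-x) to 1456 nt for 7D:12625708|12627163 (a-y). The 7 circRNAs thus differed from each other by a few steps of 7 to 58 nt between neighbouring starts and by 1 step of 47 nt between the ends.

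The 7A locus had 3 starts, u at 11713998, b at 11715613 and c at 11715620, and 3 ends, w at 11714826, x at 11717031 and y at 11717078. Its ends x and y were 47 nt apart, the same step as on 7D. Its starts b and c were 7 nt apart, again the same step as on 7D. A shift of 910085 nt laid both of these ends on their 7D counterparts, and a shift of 910111 nt laid both starts. The shifts differed by 26 nt, so the stretch between start and end was 26 nt longer on 7A than on 7D.

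**Figure D1:**
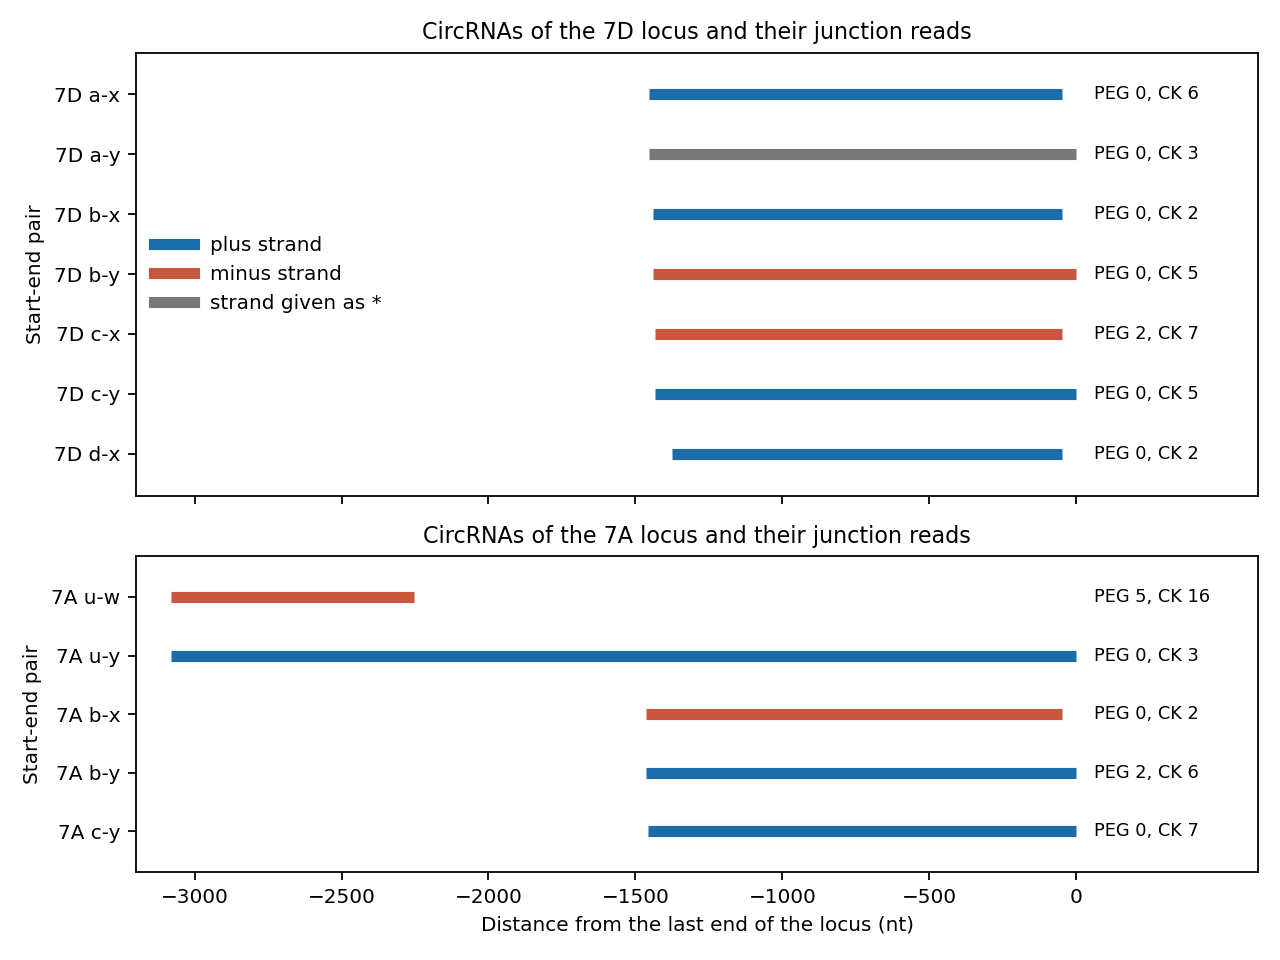
Each bar is 1 circRNA from its start to its end, in nt from the last end of its locus, with its raw junction reads in the PEG and CK libraries at the right and the strand given by its colour. The 7 circRNAs on 7D cover nearly the same 1456 nt, while 7A has 3 of like position, a shorter one upstream (u-w) and one that spans the whole 3081 nt (u-y).

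Through these shifts 3 circRNAs of 7D had a counterpart on 7A. The pair b-y was 7D:12625724|12627163 of 1440 nt and 7A:11715613|11717078 of 1466 nt. The pair c-y was 7D:12625731|12627163 of 1433 nt and 7A:11715620|11717078 of 1459 nt. The pair b-x was 7D:12625724|12627116 of 1393 nt and 7A:11715613|11717031 of 1419 nt. The constant difference of 26 nt over the 3 pairs follows from the 2 shared steps and is no further evidence of likeness. The fourth pairing of these starts and ends, c-x, was called on 7D alone, as 7D:12625731|12627116 of 1386 nt.

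The other members had no counterpart. On 7D these were the circRNAs with start a (7D:12625708|12627116 and 7D:12625708|12627163) and with start d (7D:12625789|12627116). On 7A they were 7A:11713998|11714826 (u-w), of 829 nt, and 7A:11713998|11717078 (u-y), of 3081 nt. The end w lay 786 nt before start b, so the upstream u-w did not overlap the rest of 7A, and u-y alone, with 0 PEG and 3 CK reads, joined both parts into 1 locus. As all that the table lists are called junctions, pairs that were not called are not analysed here.

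**Figure D2:**
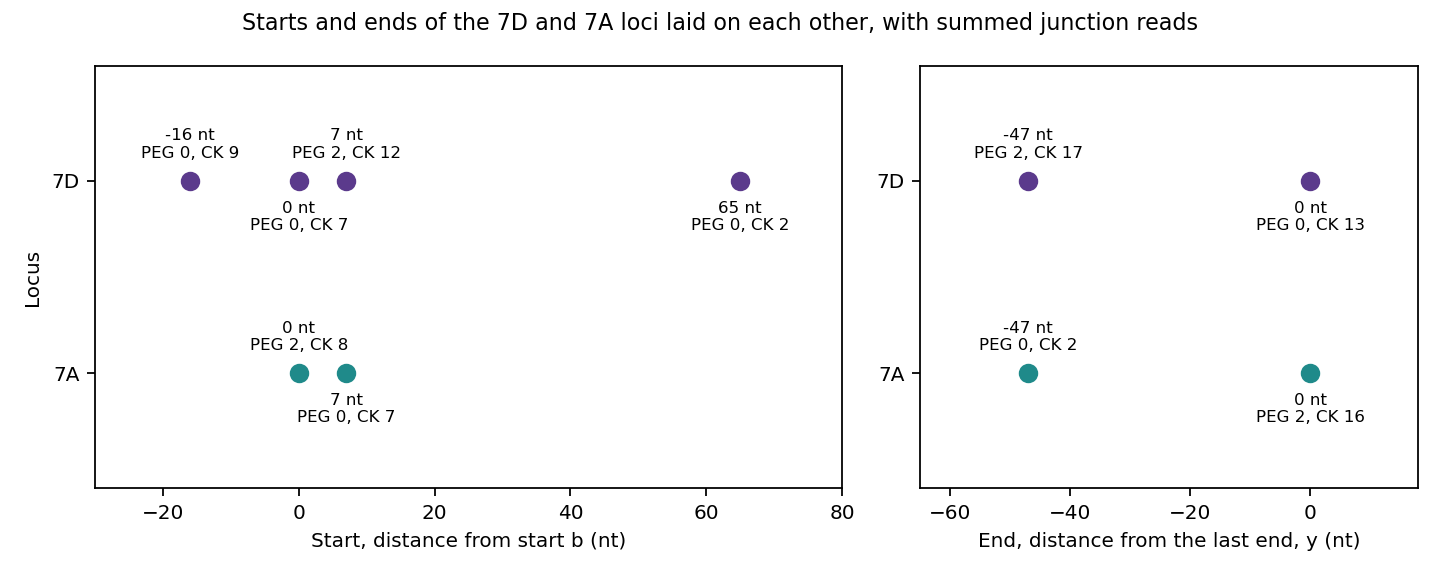
Points are the starts (left, in nt from start b) and ends (right, in nt from the last end, y) of the 7D and 7A loci, each with its distance and its junction reads summed over the circRNAs that use it. Starts b and c, 7 nt apart, and ends x and y, 47 nt apart, occur at both loci, while the starts 16 nt before and 65 nt after b occur on 7D only. Start u and end w of 7A lie outside the plotted range.

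The strand given for the junctions changed within both loci. On 7D 4 circRNAs were given on the plus strand, 2 on the minus strand and 1, a-y, with an asterisk in place of a strand. On 7A 3 were on the plus and 2 on the minus strand. Of the 5 starts that were joined to 2 ends, 4 had 1 junction on each strand and the fifth, a on 7D, had the plus strand and the asterisk. The counterparts b-y and b-x were on opposite strands on 7D and 7A, and c-y was on the plus strand at both loci. The library kit keeps the strand, but the sources used here do not say how the strand of a junction was assigned.

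At 7D the circRNA with the most reads was 7D:12625731|12627116 (c-x), with 2 reads in PEG and 7 in CK, and it was the only one of the 7 with reads in PEG. The next, 7D:12625708|12627116 (a-x), had 0 reads in PEG and 6 in CK. Both 7D:12625724|12627163 (b-y) and 7D:12625731|12627163 (c-y) had 0 in PEG and 5 in CK. The other 3 had 0 in PEG and 2 or 3 in CK. In CK the reads were therefore spread over the 7 junctions, with 23.3% on the highest (95% Wilson interval 11.8% to 40.9%).

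At 7A the highest count was upstream. 7A:11713998|11714826 (u-w) had 5 reads in PEG and 16 in CK, the highest count of the 12 members in either library and 47.1% of the 34 CK reads at 7A (95% Wilson interval 31.5% to 63.3%). 7A:11715613|11717078 (b-y) had 2 in PEG and 6 in CK. 7A:11715620|11717078 (c-y) had 0 in PEG and 7 in CK, 7A:11713998|11717078 (u-y) 0 and 3, and 7A:11715613|11717031 (b-x) 0 and 2. For the counterparts the CK reads on 7D and 7A were 5 and 6 for b-y, 5 and 7 for c-y and 2 each for b-x. In PEG, b-y was read only on 7A, with 2 reads, and c-y and b-x on neither.

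**Figure D3:**
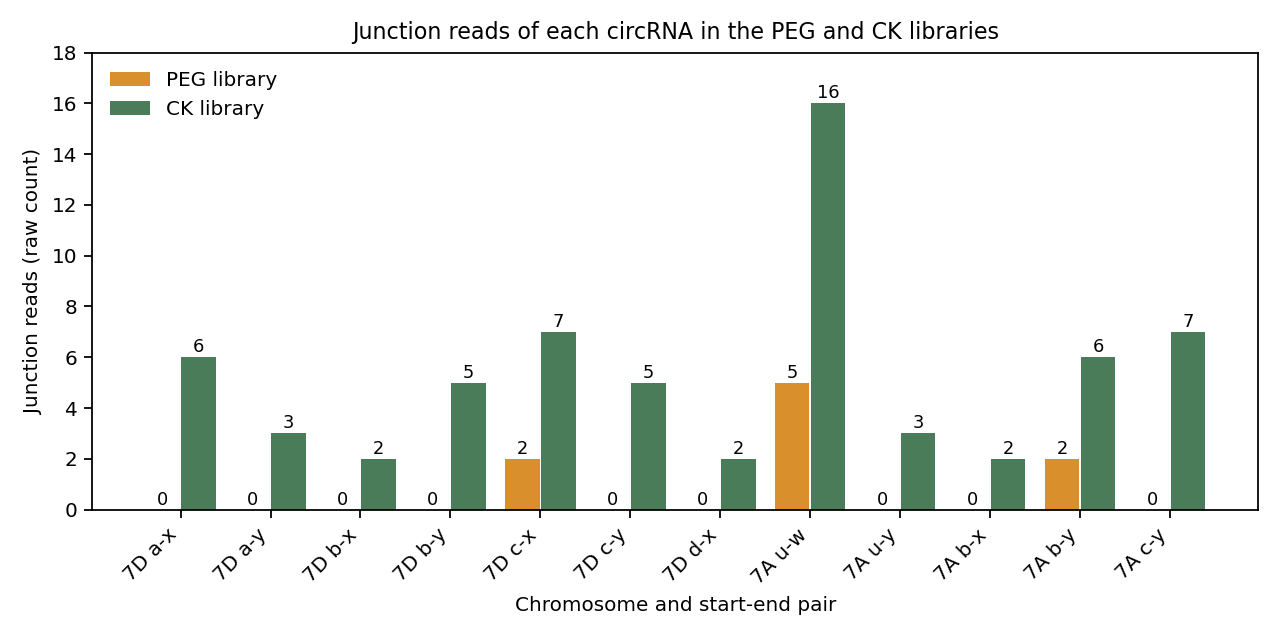
Bars are raw junction reads of each circRNA in the PEG library (orange) and the CK library (green), 1 library each with no error bar, for the 7 circRNAs of 7D and the 5 of 7A. The raw reads in CK exceed those in PEG for each of the 12, and 9 of them have 0 reads in PEG.

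The listed reads were not divided alike between the ends of the 2 loci. At end x there were 2 PEG and 17 CK reads on 7D, and 0 PEG and 2 CK reads on 7A. At end y there were 0 PEG and 13 CK reads on 7D, and 2 PEG and 16 CK reads on 7A. Of the CK reads at x and y, 56.7% were at x on 7D (95% Wilson interval 39.2% to 72.6%) and 11.1% on 7A (3.10% to 32.8%). The reads at x on 7A were the 2 CK reads of b-x alone. Those at y on 7A include the 3 CK reads of u-y, which has no 7D counterpart. The difference in end use was noticed in the data and was not tested, and the division of reads between the loci is itself uncertain. The starts b and c carried 7 and 12 CK reads on 7D, and 8 and 7 on 7A.

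The study set the PEG against the CK library to screen for circRNAs that differ under dehydration. Every one of the 12 had fewer raw reads in PEG than in CK. Of the 12, 3 were read in both libraries, 9 in CK only and none in PEG only. The 9 entered the table through CK alone, where they are high, so their direction was fixed by their being listed and no scaling can turn it. The 3 read in both were lower in PEG under each scaling except that to the total of junction reads without the chloroplast circRNA, where all 3 were higher. Among the other 76 circRNAs 8 were read in both libraries, 53 in CK only and 15 in PEG only. The deposited log2 values multiply the PEG reads by 1.37, which takes PEG as the smaller library, and enter 0 reads as 1 read. The text of the study lists the totals of raw reads in the order PEG, control, with the larger first. Which library was the larger is therefore not settled, and values with the totals exchanged are given as well. At the study's fold cutoff of 2 on these values, 9 of the 12 members were lower in PEG and none was higher, while over all 88 circRNAs 52.3% were lower and 18.2% higher. With the totals exchanged all 12 were lower, and 71 of the 88. Scaled to the total of junction reads, 2 of the 12 and 14 of the 88 were lower. Less the chloroplast circRNA, none of the 12 and 3 of the 88 were lower. In that setting 3 of the 12 and 41 of the 88 came out higher, but these 3 had no PEG read and passed only because 0 is entered as 1 read. On the deposited values, the 3 not past the cutoff, b-x on both chromosomes and d-x on 7D, had 0 PEG and 2 CK reads each, the lowest sum the table lists for a member. The median log2 difference of PEG minus CK was -1.18 over the members, -0.74 over the other 76 and -1.13 over all 88.

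No single member passed the exact binomial test of its PEG and CK reads with Benjamini-Hochberg adjustment over all 88 circRNAs, a test that called 3.41% of all circRNAs lower in PEG. The lowest exact adjusted p among the 12 was 0.175, for 7A:11715620|11717078. At an unadjusted p under 0.05 there were 2 members, this one (exact binomial p = 0.0239) and 7D:12625708|12627116 (exact binomial p = 0.0429), both lower in PEG, and over all 88 circRNAs 17.0% were lower at that threshold. With the totals exchanged 3 members passed the adjusted test, all lower in PEG, namely 7A:11715620|11717078 (exact adjusted p = 0.0210), 7A:11713998|11714826 (0.0236) and 7D:12625708|12627116 (0.0293). Over all 88 circRNAs 17 passed in either direction in that setting. Neither 7A:11715620|11717078 nor 7D:12625708|12627116 had a PEG read. Both are listed through CK alone, so their direction was fixed here and at the unadjusted threshold. On the deposited scaling the highest member, 7A:11713998|11714826, had a PEG over CK ratio of 0.428 (95% exact interval 0.123 to 1.22), which includes 1. For the members with 0 PEG reads only an upper limit of the ratio can be given, from 0.950 for 7 CK reads to 7.29 for 2 CK reads.

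Summed over its junctions, each locus had fewer reads in PEG. The sums hold 6 junctions on 7D and 3 on 7A that are listed through CK alone. The p-values below therefore condition on the outcome and are too small to be read as support. The 7D locus had 2 reads in PEG and 30 in CK, which put the ratio of PEG over CK at 0.0912 (0.0106 to 0.360 as 95% exact interval). Its exact adjusted p was 0.000484, over the 68 loci of the table. The 7A locus had 7 reads in PEG and 34 in CK, a ratio of 0.282 (0.105 to 0.646), and its exact adjusted p was 0.00765. This test called 10.3% of the 68 loci lower in PEG. With the totals exchanged the ratios were 0.0487 for 7D and 0.150 for 7A. Over the other circRNAs the ratio was 0.545 (0.435 to 0.678), or 0.327 (0.248 to 0.426) without the chloroplast circRNA, whose reads were all in PEG. The intervals cover counting error only, and PCR copies of 1 molecule would be counted as separate reads.

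Both results also rest on how the 0 counts are read. Neither library lists a count of 1, so a 0 may hide a single read, and a locus split over more junctions has more places for such reads. In PEG 6 of the 7 junctions on 7D and 3 of the 5 on 7A stood at 0, and in CK none did. With every 0 of the table counted as 1 read, the ratio was 0.365 for 7D (95% exact interval 0.145 to 0.815) and 0.403 for 7A (0.177 to 0.833), with an exact adjusted p of 0.0875 for each. Both calls also ended when the libraries were made equal in their total of junction reads, taken once with all circRNAs and once without the one of the chloroplast. This gave 7D ratios of 0.190 and 0.302 (exact adjusted p = 0.0671 and 0.358) and 7A ratios of 0.586 and 0.932 (exact adjusted p = 0.546 and 1).

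**Figure D4:**
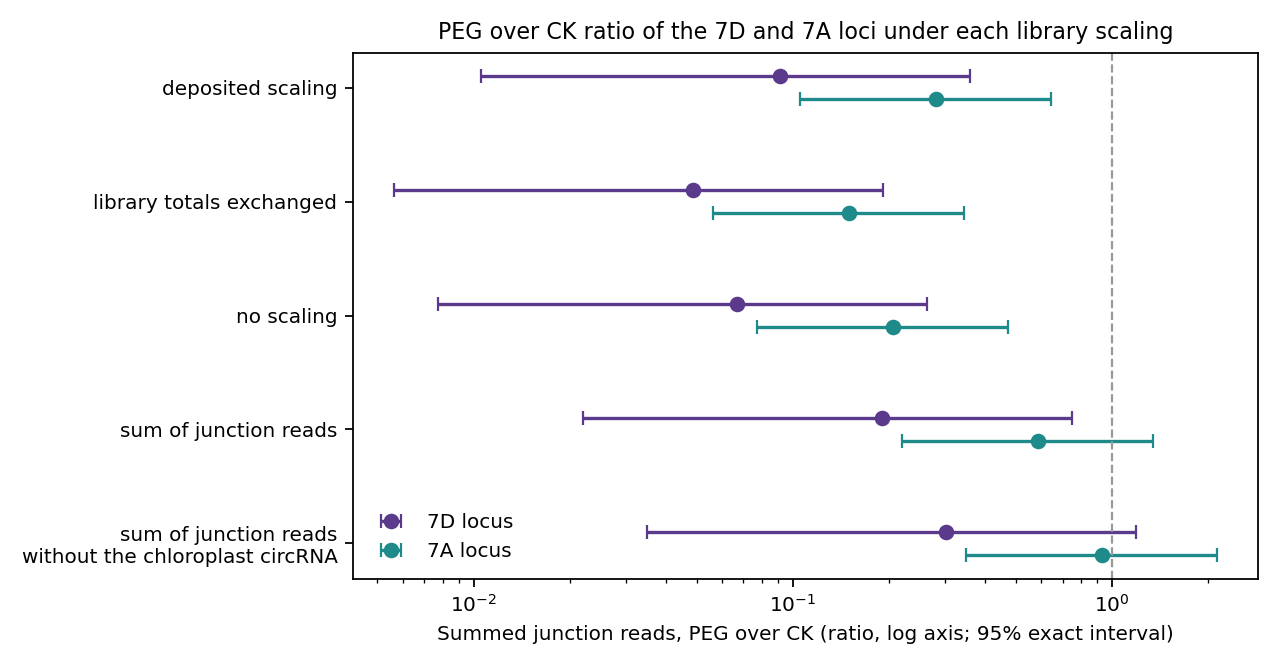
Points are the ratios of PEG over CK junction reads summed over the 7D locus and the 7A locus, on a log axis, with 95% exact intervals that cover counting error only, under 5 scalings of the libraries. The dashed line marks a ratio of 1. On the deposited scaling 7D is at 0.0912 and 7A at 0.282, and with the total of junction reads less the chloroplast circRNA as scaling both intervals include 1.

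The 7D and 7A loci were not shown to differ in their change. The odds of a PEG read at 7D were 0.328 times those at 7A (95% interval 0.0310 to 1.91, two-sided Fisher's exact p = 0.283), an interval that holds both a large difference and none. This comparison does not depend on the scaling of the libraries. Its sums hold 6 junctions on 7D and 3 on 7A that are listed through CK alone. The odds ratios, intervals and Fisher's exact p-values given here therefore condition on the listing. Of the 7 PEG reads of 7A, 5 were those of 7A:11713998|11714826. With the circRNAs that end at x or y alone, 7D had 2 PEG and 30 CK reads and 7A 2 and 18, an odds ratio of 0.606 (0.0406 to 9.04, Fisher's exact p = 0.634). With every 0 counted as 1 read it was 0.908 (0.272 to 2.94, Fisher's exact p = 1). The upstream part of 7A by itself had a PEG over CK ratio of 0.428 (95% exact interval 0.123 to 1.22). For b-x, b-y and c-y of 7A together, with 2 PEG and 15 CK reads, the ratio was 0.182 (0.0203 to 0.785). Of these, b-x and c-y are listed through CK alone, so this ratio and its interval condition on the listing. The circRNA b-y of 7A, read in both libraries, had a ratio of 0.456 (0.0450 to 2.55).

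How the reads were divided between the loci is uncertain. The RT-qPCR assays of the study for 7D:12625708|12627116 and 7A:11715620|11717078 had different reverse primers and the same forward primer. They therefore share 1 primer sequence. The study ran its assays in biological replicates and sequenced the products. It reports all circRNAs it tested as circular and most as changing in the same direction as in sequencing. Its text does not name the exceptions, and the assays were not analysed here. CIRI, by the methods, filters candidates that come from wrongly mapped reads of homologous or repeated sequence. How it divided reads that fit both copies and passed this filter is not described there. The sum over both loci does not depend on how the listed reads were split between them. The split could still decide which junctions were listed, as the lowest count above 0 was 2 in both libraries. The sum was 9 reads in PEG and 64 in CK, a ratio of 0.192 (95% exact interval 0.0842 to 0.389). Over the other circRNAs without the chloroplast one it was 0.327 (0.248 to 0.426). Of the 12 junctions in the sum over both loci, 9 are listed through CK alone. Its ratios, intervals and shares therefore condition on the listing. Made equal in their totals of junction reads, the libraries gave 0.400 (0.175 to 0.808), and less the chloroplast circRNA 0.636 (0.278 to 1.29), an interval that includes 1. Both loci made up 7.26% of all junction reads in PEG (95% Wilson interval 3.87% to 13.2%) and 18.1% in CK (14.5% to 22.5%). Without the chloroplast circRNA the share in PEG was 11.5% (6.19% to 20.5%).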

How the data were processed

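Back-splice junction reads were measured in 1 PEG and 1 CK library. The authors enriched circRNAs from total RNA, filtered the reads, aligned them with BWA-MEM to IWGSC1.0+popseq, and called circRNAs with CIRI and Ensembl Plants annotation. Which version of BWA was used is not stated in these sources. The extraction text of the labels speaks of retinas, whereas tissue label and methods give leaves. The deposited counts are raw junction reads. The authors also deposited log2 values of these reads, with 0 entered as 1 read and PEG multiplied by 1.37, as checked for all 88 circRNAs.

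Ratios, exact (Clopper-Pearson) intervals, two-sided exact binomial tests and Fisher's exact tests were obtained in Python 3.11.15 with scipy 1.17.1, and the binomial test was tested on simulated data. The simulated reads had no minimum count and no listing step, so they do not show how the listing affects the p-values. P-values were adjusted by Benjamini-Hochberg at 0.05 over all 88 circRNAs or over the 68 loci. CircRNAs overlapping by at least 1 base were 1 locus. All 12 members were named, and others only where they shared a step or span with a member. Members, tests and alternatives were chosen with earlier results of these data known. Counting each 0 as 1 read and summing both loci were added after the data were seen. Sequences were not used here, since no genome of this build was at hand.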

Additional observations from a re-analysis of the deposited data

How the results depend on the processing

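The ratios of 7D and 7A stayed below 1 under all alternatives run. They kept an adjusted call with the library totals exchanged, without scaling and with a minimum of 3 reads. They also kept it without the circRNA with the most reads at each locus. The junctions listed through CK alone enter all of these settings, so none of them is support for a change. Without c-x every junction left on 7D had 0 PEG reads, so its ratio of 0 (upper limit 0.238) was fixed by the listing. Equal totals of junction reads take out the overall change by construction, and the calls were then lost, with all circRNAs (7D 0.190, 7A 0.586) and without the one of the chloroplast (7D 0.302, 7A 0.932). They were also lost when every 0 was counted as 1 read (7D 0.365, 7A 0.403). Under the same 2 scalings the ratio over both loci was 0.400 and 0.636. By the fold cutoff of 2, 9 of the 12 members and 46 of the 88 circRNAs were lower. These counts were 2 and 14 under the first of these scalings and 0 and 3 under the second, 12 and 71 with the totals exchanged, 10 and 65 with 1 read added to every count, and 2 and 14 at a cutoff of 4. Fisher's exact p for 7D against 7A, which conditions on the same listing, ran from 0.210 to 1. Depth limits all values: no member had more than 5 reads in PEG or 16 in CK. No paired analysis was possible because each condition had 1 library.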

Other observations

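The steps between starts or ends seen at 7D and 7A also occurred at 2 other loci. Outside the 12 circRNAs, 9 pairs shared a start or an end. On chromosome 6D, 6D:24078974|24080453 and 6D:24079021|24080453 shared their end and had starts 47 nt apart, both on the minus strand, with spans of 1480 and 1433 nt. The step of 47 nt, found between the ends on 7D and 7A, was thus between the starts on 6D. They had 3 and 0 reads in PEG, against 5 each in CK. On chromosome 1D, 1D:107208124|107209585 and 1D:107208140|107209585 shared their end and had starts 16 nt apart, the step between starts a and b on 7D, with spans of 1462 and 1446 nt. They had no reads in PEG, against 2 and 6 in CK. Whether such steps coincide by chance was not tested.

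Spans were also alike. The span of 1433 nt of 6D:24079021|24080453 was that of 7D:12625731|12627163, and IWGSC_CSS_2BL_scaff_8076317:483|1891 had the 1409 nt of 7D:12625708|12627116, with 0 reads in PEG and 6 in CK. Leaving out the 829 and 3081 nt circRNAs of 7A, the other 10 members spanned 1328 to 1466 nt. Of the 76 other circRNAs 17, from 13 loci, lay in this range, 14 of them intergenic. None of the 17 was read in PEG only, with 3 read in both libraries and 14 in CK only, and together they had 8 reads in PEG and 99 in CK. This range was set by the members after their values were seen, and the counts are a description.

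Chromosome 7B, the third counterpart, had no cluster of this kind among the called circRNAs. The only circRNA of like span assigned to 7B was IWGSC_CSS_7BL_scaff_6691207:3871|5300, of 1430 nt on the plus strand, with 2 reads in PEG and 4 in CK. It was named after its values were seen. Its scaffold has no position on the chromosome here, so it cannot be placed at the counterpart of the 7A and 7D loci. A short junction followed by a longer one, as u-w is by b-y on 7A, was also seen on chromosomes 1D and 5D. These were picked after the data were seen. Neighbouring loci on 3D were nearer to each other in width, with 1354 nt before 1507 nt and 1398 nt before 1357 nt. On 1D a locus of 867 nt lay 601 nt before the locus of 1462 nt, and on 5D a locus of 823 nt lay 738 nt before one of 1338 nt, against 829 nt, 786 nt and 1466 nt on 7A.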
